A study of Mus musculus with 3 samples.

Results

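The proteasome subunit genes examined here were the 48 mouse protein-coding genes whose symbol starts with Psma, Psmb, Psmc, Psmd, Psme, Psmf or Psmg, out of 21951 protein-coding genes of the GENCODE M21 annotation. Psmb8 and Psmb9 were left out by the same rule. The choice rests on gene names and uses no measured value. Psmc3ip, picked up by its name, encodes a recombination factor and no part of the proteasome. The 48 genes lie on 16 chromosomes. H3K36me3, trimethylation of lysine 36 of histone H3, was measured by ChIP-seq in Treg cells sorted as CD3+CD4+Foxp3-YFP+ from the large intestine and, separately, from the spleen of adult C57BL/6 mice at steady state. All mice carried the Foxp3Cre-YFP allele (given as genotype Foxp3-YFP), in which the Foxp3 gene drives a Cre-YFP fusion, and no treatment was given. Each tissue had 1 library, made from the combined cells of 7 females and 7 males. There are no replicates, so no test between tissues was possible, no p-value is given, and every difference is between 2 libraries.

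The proteasome is the protease of the cytosol and nucleus that degrades proteins tagged with ubiquitin. Its barrel-shaped core, the 20S particle, is built of alpha-ring and beta-ring subunits, and some of the beta subunits are the peptidases. A regulatory cap, the 19S particle, recognises ubiquitin, removes it and unfolds the substrate with a ring of ATPases, while dedicated chaperones assemble both particles. All cells need a proteasome, and most of the genes of its subunits are expressed broadly. H3K36me3 is laid down by Setd2 travelling with elongating RNA polymerase II, so it marks the bodies of transcribed genes and usually grows towards their 3' end. Immune cells can exchange catalytic beta subunits for the immunoproteasome forms, of which Psmb10 is among the genes considered here.

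Values are mean H3K36me3 coverage per peak in RPKM, read coverage per kilobase scaled to the depth of the library. Each library was brought to the same total over all 120910 peaks of the merged peak set. A peak belonged to a gene if its midpoint lay in the gene body. A gene's peak values were summed, and the tissues were compared as log2 of large intestine over spleen after adding 0.5 RPKM to each sum, wherever both libraries together reached 20 RPKM in a gene. This scale understates the change of low genes. The step size of the values gives a number of mapped reads only for a given width of the coverage bins. With bins assumed to be 20 bp wide, it corresponds to 29600000 mapped reads for the splenic library and 38100000 for the intestinal library. The interval beside a ratio is an approximate 95% counting interval in which each read was taken to cover 200 bp. It covers counting error only and says nothing of the spread between mice. Of the markers of the sorted cells, Foxp3, Il2ra, Ctla4, Cd3e and Cd4 all had peaks, with Foxp3 at 134.6 RPKM in splenic and 153.9 RPKM in intestinal Treg cells. Of 4 B cell, 4 myeloid, 5 intestinal epithelium and 2 CD8 T cell markers, 2, 1, 2 and 1 had a peak, and among those without were Ms4a1, Lyz2, Itgam, Cd14, Cdh1, Krt8, Krt20 and Cd8a. Summed over each list, the B cell markers had 52.1 RPKM in splenic and 39.1 RPKM in intestinal Treg cells, the epithelial markers 30.4 and 58.9 RPKM, the myeloid markers 14.9 and 16.1 RPKM, and the CD8 T cell markers 21.4 and 9.31 RPKM. The part of other cells in the results was not tested.

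Nearly all proteasome genes carried the mark. A peak overlapped 46 of 48 genes (95.8%), against 46.7% of all protein-coding genes, and 43 (89.6%) had a peak midpoint in their body, against 45.7%. The genes without any peak were Psma8, the testis-specific alpha subunit, and Psmb11, the beta subunit of the thymus cortex. Of the 43 genes with a midpoint, 42 had enough signal to be compared. Psmg3, a chaperone of the 20S core, had a single counted peak with 9.92 RPKM in splenic and 9.39 RPKM in intestinal Treg cells and stayed below the filter. Psmb4, a beta subunit, Psme2b, a copy of the activator gene Psme2 whose reads may not be separable from those of Psme2, and Psmc3ip were overlapped only by peaks centred outside them.

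The mark covered a larger share of these genes than of all coding genes with signal, but a smaller share than of cytosolic ribosomal protein genes. In the 42 genes compared, peaks covered a median of 60.1% of the gene body, against 39.2% over the 9456 protein-coding genes compared and 76.8% over 62 ribosomal protein genes. The proteasome genes were shorter, with a median length of 12908 bp against 24723 bp. Among the 42 genes, the covered share and the gene length had a Spearman rho of -0.46, given as a description since genes of these libraries share depth and base composition. Averaged over the gene body, the median signal was 9.09 RPKM in splenic and 8.46 RPKM in intestinal Treg cells, compared with 5.03 and 5.12 RPKM over all genes and 14.3 and 13.3 RPKM over the ribosomal protein genes, and 32 of 42 genes lay above the middle of all genes on this measure. Per base of peak, which leaves uncovered sequence out, the medians were closer, with 13.8 and 13.7 RPKM in proteasome genes and 12.9 and 13.3 RPKM in all genes.

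The proteasome genes held 351 peaks, of which 248 (70.7%) lay in introns, 53 within 1 kb of a transcript start, 28 in exons and 22 in UTRs. The median peak was 579 bp long. Broad domains were a little more frequent here, since 113 peaks (32.2%) were 1 kb or longer, against 23.9% of all peaks in coding genes. The longest peak spanned 13929 bp at Psmc1, an ATPase of the 19S particle, and reached 4445 bp past the gene, touching Nrde2. Peaks that run past a gene hold signal of both genes or of the sequence between them, and these cannot be told apart in the deposited values. Of the 351 peaks, 11 had their midpoint in another coding gene as well.

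Levels per peak base differed widely among the genes but kept nearly the same order in both libraries. In spleen they ran from 8.46 to 26.1 RPKM and in large intestine from 6.62 to 29.3 RPKM, with a Spearman rho of 0.91 between the libraries across the 42 genes. By the midpoint rule, the highest levels were those of 19S and activator genes. Psmd4, which encodes a ubiquitin receptor of the 19S particle, had 26.1 RPKM in splenic and 29.3 RPKM in intestinal Treg cells. Psmd3, a structural subunit of the 19S lid, had 25.8 and 28.1 RPKM. Psme1, a subunit of the interferon-induced activator PA28, had 24.2 and 23.9 RPKM. Psmd4 and Psmd3 differed from each other by less than either differed between the libraries, so their order cannot be told. By the mean of both libraries, the lowest levels per peak base were found in Psme4, which encodes the activator PA200 (8.46 and 7.66 RPKM), in Psmd14, the deubiquitinase of the 19S particle (8.66 and 8.22 RPKM), and in Psmd10, the 19S chaperone also known as gankyrin (8.63 and 6.62 RPKM). In the intestinal library alone, Psmg4, a chaperone of the 20S core, was also low (7.37 RPKM, against 12.8 RPKM in the splenic library). In Psme4, Psmd14 and Psmd10 peaks covered only 9.69%, 4.41% and 11.6% of the body. Psmb10, the immunoproteasome subunit, had 17.6 RPKM in splenic and 15.1 RPKM in intestinal Treg cells, above the median of the genes in both.

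By particle, the 17 genes of the 19S particle had a median level of 17.1 RPKM in splenic and 18.5 RPKM in intestinal Treg cells. The 14 compared genes of the 20S core had 13.3 and 12.5 RPKM. Both medians rest on the midpoint rule, which leaves out large peaks over Psmc5 and Psma7. Cytosolic ribosomal protein genes, a large set of broadly expressed genes, had 19.5 and 17.9 RPKM in 62 genes. Mitochondrial ribosomal protein genes had 12.4 and 12.6 RPKM in 70 genes.

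**Figure D1:**
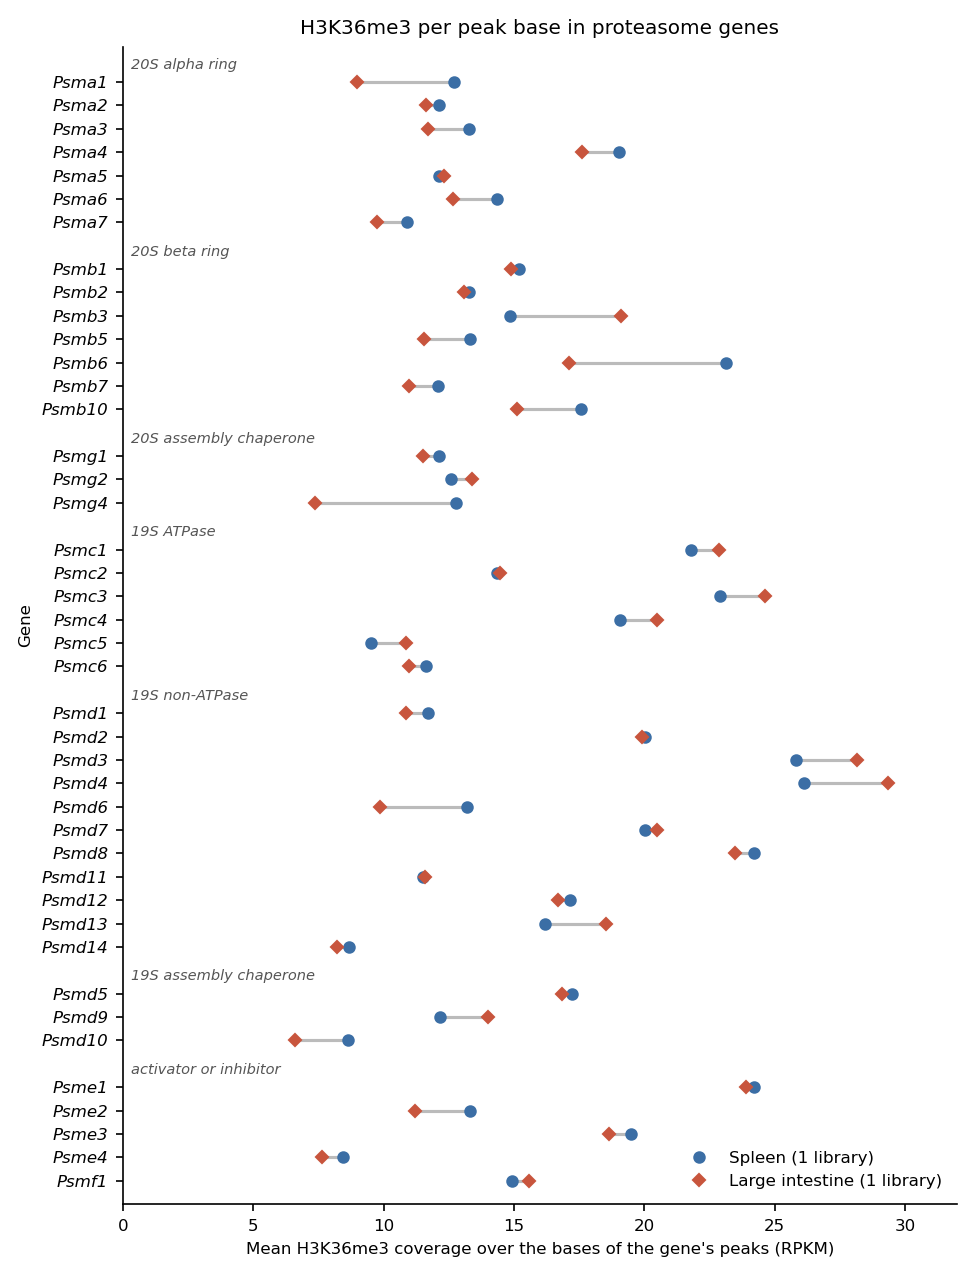
Mean H3K36me3 coverage per base of the peaks of each gene (x axis, RPKM) for the 42 proteasome genes compared (y axis, grouped by role), with a circle for the spleen library and a diamond for the large intestine library, 1 library each. Psmd4 and Psmd3 sit highest at 25.8 to 29.3 RPKM. Psmd10, Psmd14 and Psme4 are lowest by the mean of both libraries at 6.62 to 8.66 RPKM. Psmg4 reaches 7.37 RPKM in large intestine only, and in most genes the symbols lie close together. Only peaks centred in a gene count, so large peaks over Psmc5 and Psma7 are left out.

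Signal grew towards the 3' end of the proteasome genes in both libraries. The mean over the 42 genes was 0.85 RPKM in splenic and 0.83 RPKM in intestinal Treg cells in the first 10% of the gene body and 14.0 RPKM in both libraries between 80% and 90% of its length. Over all genes compared, the corresponding means were 1.11 and 1.21 RPKM at the start and 10.2 and 10.7 RPKM near the end. With the body split into 3 equal parts, the last part held a median of 46.5% of a proteasome gene's signal in spleen and 46.7% in large intestine, and held more than the first or the middle part in 26 (61.9%) and 27 (64.3%) of the 42 genes. For all genes the last part held 50.2% and 50.9%, and was the highest in 63.2% and 64.3% of genes. The first part was the highest in 4 proteasome genes (9.52%) in each library, against 8.30% and 7.94% of all genes (Psma2, Psmb7, Psmd1 and Psmg4, singled out after their values were seen).

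**Figure D2:**
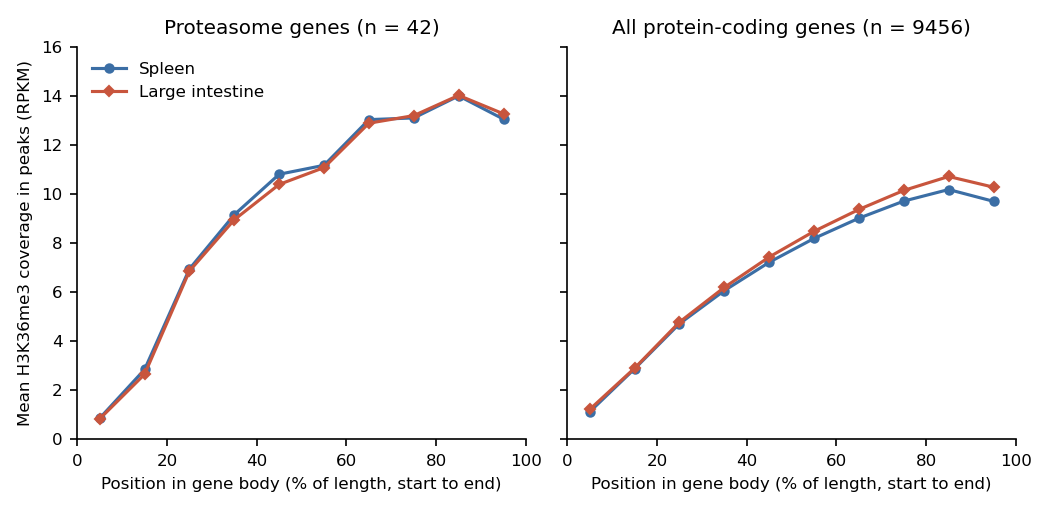
Mean H3K36me3 coverage (y axis, RPKM, 0 where no peak lies) in steps of 10% of the gene body from start to end (x axis, percent of gene length) for the 42 proteasome genes and for the 9456 protein-coding genes compared, in each library. The spleen and large intestine lines of the proteasome genes lie together, rising from 0.85 and 0.83 RPKM to 14.0 RPKM.

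Few RefSeq promoters of these genes were marked. Promoter windows of 250 bases before to 50 bases after the start (RefSeq, GRCm38.p6) were found for 40 of the 48 genes, 43 promoters in all. A peak overlapped 4 of the 43 (9.30%), those of Psmc2, Psmd11, Psmd5 and Psme2b, against 4.50% of all promoters. Of the 38 promoters of proteasome genes compared it was 3 (7.89%), against 8.88% of the promoters of coding genes compared. Then 3 motifs were counted in the windows on both strands. TGACNNNGC, the core of the element to which the proteasome regulator Nfe2l1 is known to bind, was in 6 of 43 promoters (14.0%), against 12.4% of all promoters and 14.3% of those of coding genes compared. CCGGAAG, the core of sites known for ETS factors, was in 16 (37.2%), against 8.86% and 19.8%. The 16 include promoters of Psmc3ip and Psmg3, which were not compared, and each promoter of Psmc2. CCAAT, the core of the NF-Y site, was in 14 (32.6%), against 37.4% and 37.7%. No overlap between the motifs was required or barred. The TGACNNNGC promoters were those of Psmb5 and Psmb6, catalytic subunits of the core, Psmc6, Psmd9, Psmd12 and Psme4. A match only says that these letters are present in the window. Psmc6, Psmd12 and Psme4 held both TGACNNNGC and CCGGAAG and are shown for that reason, and Psmb6 is shown because it is the beta-ring gene that differed most between the libraries. Each run gives 250 bases before the start and the first 20 after it, on the plus strand, with the motifs in capitals, in reverse complement where the match is on the other strand. They are chr14:45329574-45329843 for Psmc6, chr11:107479278-107479547 for Psmd12, chr11:30771525-30771794 for Psme4 and chr11:70525107-70525376 for Psmb6.
Psmc6: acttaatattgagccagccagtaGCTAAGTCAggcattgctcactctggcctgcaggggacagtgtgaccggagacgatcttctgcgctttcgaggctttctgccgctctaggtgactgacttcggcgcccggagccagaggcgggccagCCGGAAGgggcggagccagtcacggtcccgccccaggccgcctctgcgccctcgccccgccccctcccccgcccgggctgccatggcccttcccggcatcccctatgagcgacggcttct
Psmd12: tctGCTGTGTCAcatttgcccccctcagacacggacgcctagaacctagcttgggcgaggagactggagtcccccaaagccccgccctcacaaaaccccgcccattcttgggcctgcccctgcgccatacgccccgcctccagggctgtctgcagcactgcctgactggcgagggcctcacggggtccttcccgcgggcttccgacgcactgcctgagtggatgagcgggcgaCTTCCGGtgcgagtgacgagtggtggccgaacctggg
Psme4: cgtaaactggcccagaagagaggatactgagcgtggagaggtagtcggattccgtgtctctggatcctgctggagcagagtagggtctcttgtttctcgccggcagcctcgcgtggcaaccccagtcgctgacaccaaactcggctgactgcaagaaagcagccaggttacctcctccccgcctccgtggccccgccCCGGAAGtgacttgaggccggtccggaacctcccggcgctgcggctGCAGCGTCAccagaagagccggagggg
Psmb6: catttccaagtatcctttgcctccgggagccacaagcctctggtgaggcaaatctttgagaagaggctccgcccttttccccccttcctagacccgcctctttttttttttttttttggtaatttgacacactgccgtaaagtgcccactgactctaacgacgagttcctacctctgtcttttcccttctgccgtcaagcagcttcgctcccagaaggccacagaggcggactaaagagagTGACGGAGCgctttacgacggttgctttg

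Between the tissues, the ratios of the proteasome genes lay close to 0. Over 2-fold higher signal was seen for 0 of the 42 genes in large intestine, where 3.24% of all coding genes compared passed this line, and for 0 in spleen, where 1.81% passed. Against backgrounds this low, a count of 0 in 42 genes says little by itself. The spread of the ratios was narrow. The median log2 ratio was -0.05, the middle 50% of genes lay between -0.17 and 0.05, and the SD was 0.22, whereas all genes had a median of 0.005 and an SD of 0.47. The median counting error was alike, with a standard error of 0.14 for proteasome genes and 0.15 for all genes. Of the proteasome genes, 41 of 42 (97.6%) lay within 0.5 of 0 on the log2 scale, against 81.3% of all genes, the exception being Psmg4. A narrow spread was shared by other broadly expressed genes, with an SD of 0.26 in the cytosolic and 0.25 in the mitochondrial ribosomal protein genes.

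The counting interval lay above 0 for 1 proteasome gene, Psmd3, and below 0 for 3, Psma1, Psmb6 and Psmd6. Over all coding genes compared, 18.5% had an interval above 0 and 15.9% below 0. Single peaks were noisier than genes. The SD of the log2 ratio over the peaks of proteasome genes was 0.69 below 1 kb in length and 0.27 from 1 kb upwards, where ratios ran from -0.73 to 0.66. Of the 351 peaks, 151 (43.0%) were higher in large intestine, compared with 48.7% of all peaks in coding genes.

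**Figure D3:**
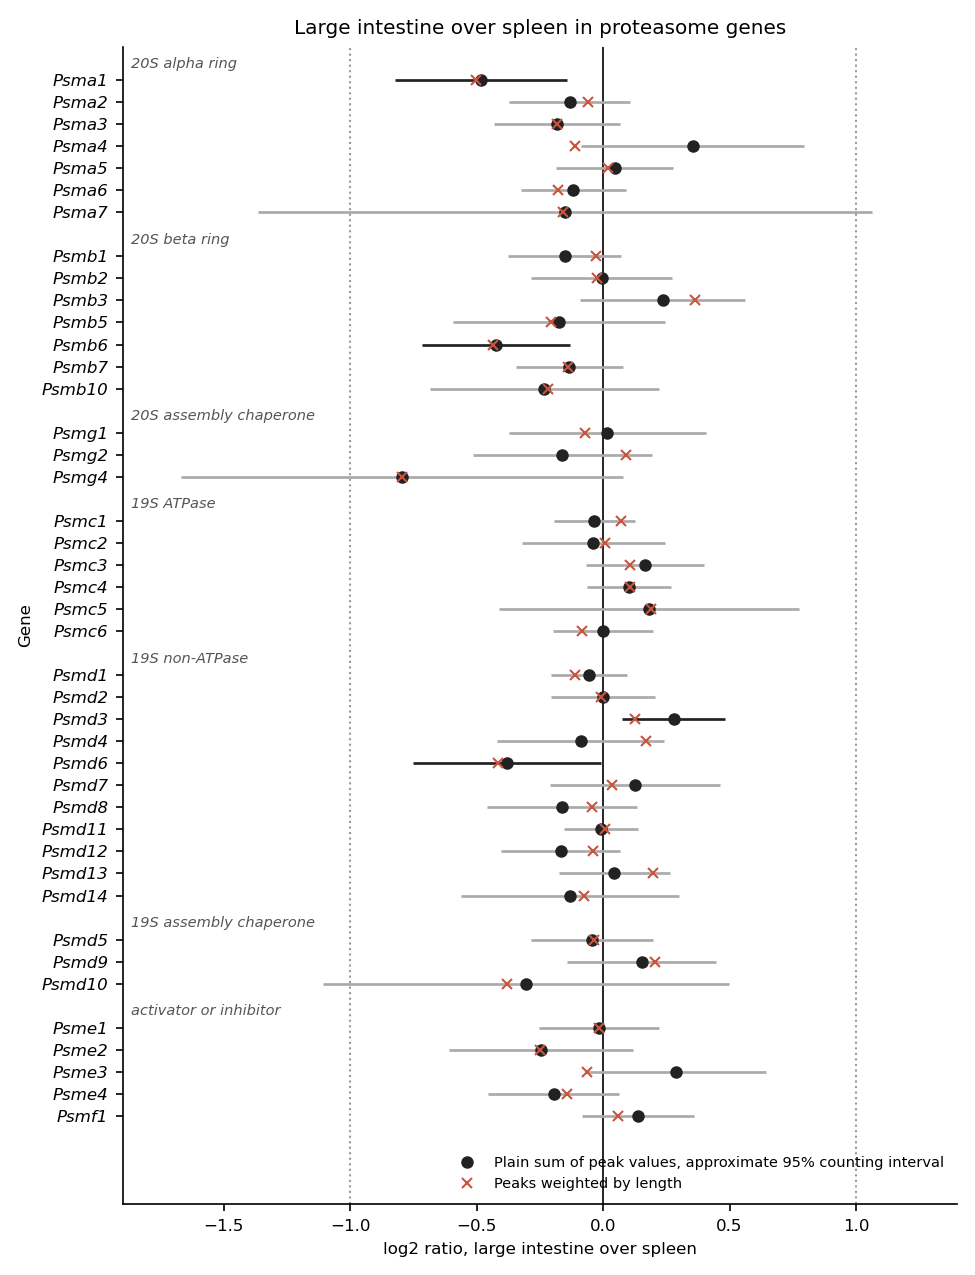
log2 ratio of large intestine over spleen (x axis) for the 42 proteasome genes (y axis, grouped by role). Circles with bars are plain sums of peak values with the approximate 95% counting interval (black where it leaves out 0), crosses are ratios with peaks weighted by length, and dotted lines mark 2-fold. Only Psma1, Psmb6, Psmd6 and Psmd3 have black bars, and no circle reaches a dotted line.

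In the 20S core, more genes had a ratio below 0 than above it before correction for GC content. The median log2 ratio was -0.13 over 7 of 8 alpha-ring genes and -0.15 over 7 of 9 beta-ring genes, with 11 of the 14 core genes negative, against 49.3% of all genes compared. The peaks of the alpha-ring genes had a median GC content of 41.1%, and those of the beta-ring genes 48.1%, the same as over all genes (48.1%). After the correction for GC content 6 of the 14 core genes were negative, against 52.1% of all genes compared. The corrected median of the core genes was 0.02, against -0.01 over all genes. The part of GC content in the core ratios was not tested. Psma1, an alpha-ring subunit (ENSMUSG00000030751.18, chr7:114264606-114276118, minus strand), had 84.0 RPKM in splenic and 60.0 RPKM in intestinal Treg cells over 7 peaks. Its ratio was -0.48 (-0.82 to -0.14), and 6 of the 7 peaks were higher in spleen. The 3 peaks of 1 kb or more, all in introns, had ratios of -0.47, -0.46 and -0.48, so the difference ran along the gene. After the correction for GC content its interval held 0. Psmb6, the subunit with caspase-like activity (ENSMUSG00000018286.6, chr11:70525367-70527858, plus strand), had a single peak of 2648 bp, with 23.1 RPKM in splenic and 17.1 RPKM in intestinal Treg cells. This gave a ratio of -0.42 (-0.72 to -0.13). The peak runs 978 bp past the gene and touches no other coding gene.

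The other core genes lay nearer to 0. Psma4, an alpha-ring subunit, had 23.6 RPKM in splenic and 30.3 RPKM in intestinal Treg cells and the highest ratio of the 42 genes, 0.35 (-0.09 to 0.80). Its value came from a small peak. A 262-bp peak near its start, with 73.7% GC, had 3.93 RPKM in splenic and 12.5 RPKM in intestinal Treg cells, while the 6034-bp peak over the rest of the gene had 19.7 and 17.8 RPKM. Weighted by length, the ratio of Psma4 was -0.11. Psmb3, a structural beta-ring subunit, had 6 peaks that summed to 76.0 and 89.6 RPKM, giving a ratio of 0.24 (-0.09 to 0.56), which was 0.36 (0.14 to 0.58) weighted by length. The other 10 core genes ran from -0.23 for Psmb10 to 0.05 for Psma5, and their intervals all held 0. For Psma7, an alpha-ring subunit, the counted peak was only 286 bp long, since a 9740-bp peak centred in the neighbouring gene Lsm14b covered 3597 bp of it. With all overlapped bases counted, Psma7 gave 0.16 (0.02 to 0.30) and Psmb4 gave -0.18 (-0.46 to 0.11).

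**Figure D4:**
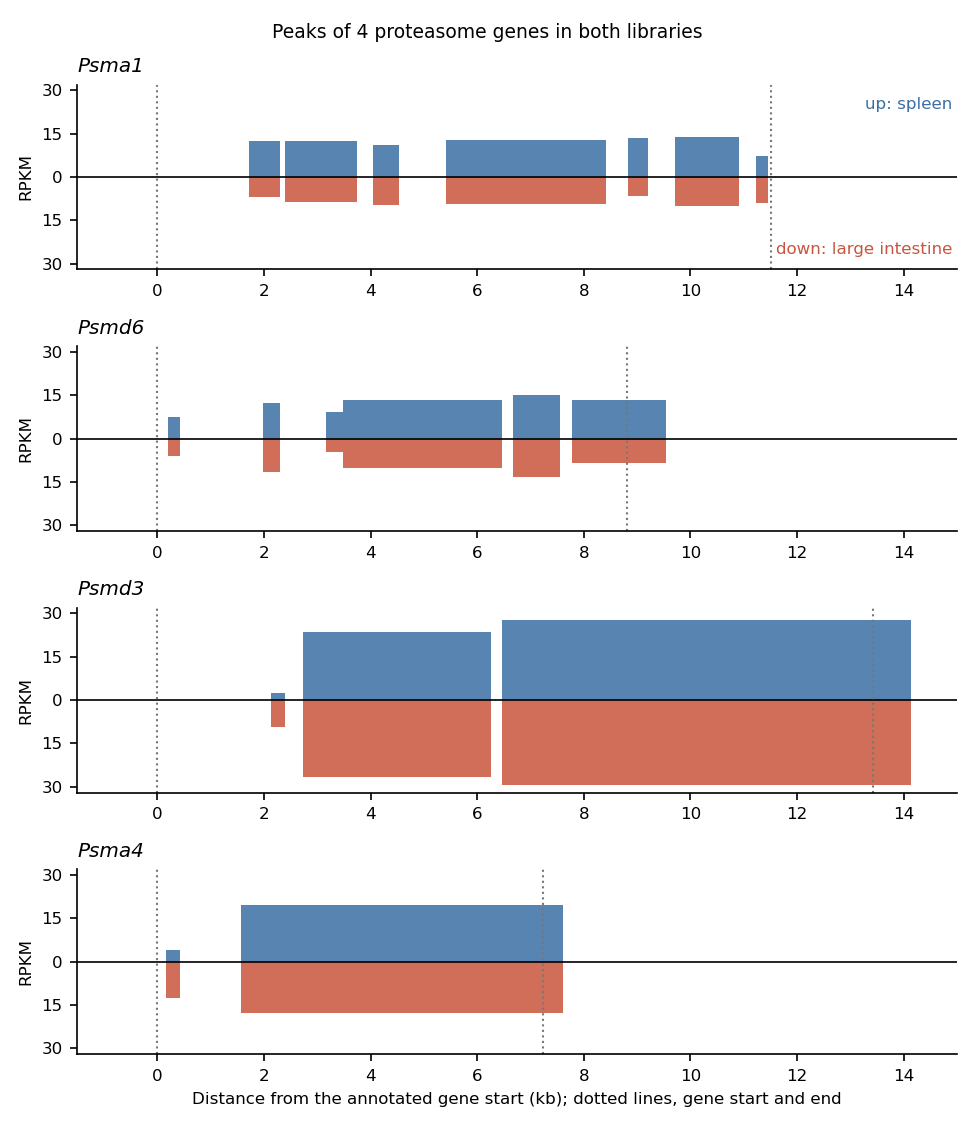
Peaks of Psma1, Psmd6, Psmd3 and Psma4 drawn to scale along the gene (x axis, kb from the annotated start, dotted lines at gene start and end), with the RPKM of the spleen library upwards and of the large intestine library downwards (y axis). Psmd6 is higher in spleen in every peak and Psma1 in all but its last, whereas Psmd3 and Psma4 have small peaks near the start that are higher in large intestine (9.26 against 2.55 RPKM and 12.5 against 3.93 RPKM).

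In the 19S particle, ratios lay on both sides of 0, and the sign of their median depended on the processing. The median log2 ratio was 0.05 over the 6 ATPase genes, -0.06 over the 11 non-ATPase genes and -0.01 over all 17. The ATPase genes ran from -0.04 for Psmc2 (92.6 RPKM in spleen, 90.2 RPKM in large intestine) to 0.18 for Psmc5 (9.52 and 10.9 RPKM), and the intervals of all 6 held 0 by the midpoint rule. Psmc3, at 51.5 and 57.9 RPKM, had a ratio of 0.17 (-0.07 to 0.40). Psmc4, at 19.1 and 20.5 RPKM, had a ratio of 0.10 (-0.06 to 0.27). Psmc5 was counted from a 1230-bp peak, because an 8018-bp peak centred in Smarcd2 covers 2487 bp of the gene, and with all overlapped bases its ratio was 0.15 (0.003 to 0.29), an interval that leaves out 0.

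Psmd3 (ENSMUSG00000017221.14, chr11:98682554-98695979, plus strand) had 53.8 RPKM in splenic and 65.4 RPKM in intestinal Treg cells, a ratio of 0.28 (0.08 to 0.48), with more signal in large intestine in each of its 3 peaks. A 262-bp peak with 2.55 and 9.26 RPKM contributed most of it, and the peaks of 3531 and 7679 bp had ratios of 0.17 and 0.09. Weighted by length, the ratio was 0.12, and after the correction for GC content the interval held 0. Psmd6, another subunit of the 19S lid (ENSMUSG00000021737.4, chr14:14112174-14120984, minus strand), had 70.9 RPKM in splenic and 54.4 RPKM in intestinal Treg cells. Its ratio was -0.38 (-0.75 to -0.01), with more signal in spleen in each of its 6 peaks, and this interval too held 0 after that correction. The other 9 non-ATPase genes lay between -0.17 for Psmd12 (125.9 and 112.0 RPKM) and 0.13 for Psmd7. Psmd1, a scaffold subunit of the particle, had the most peaks, 39, which summed to 398.8 RPKM in splenic and 383.3 RPKM in intestinal Treg cells and gave -0.06 (-0.21 to 0.09), one of the narrowest intervals among these genes. Psmd11, whose product is a lid subunit linked to proteasome assembly, gave -0.01 (-0.16 to 0.14) over 31 peaks.

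Among the assembly chaperones compared, ratios ran from -0.80 for Psmg4 to 0.15 for Psmd9. Psmg4, a chaperone of the alpha ring (ENSMUSG00000071451.10, chr13:34162964-34178173, plus strand), had 26.4 RPKM in splenic and 15.0 RPKM in intestinal Treg cells. Its ratio of -0.80 was the lowest of the 42. With reads taken to cover 200 bp, the interval ran from -1.67 to 0.08, so no difference was detectable under that assumption. A shorter stretch per read would narrow the interval. Only 4.20% of the gene was covered, by intron peaks of 386 and 253 bp, each higher in spleen. Their sequence is shown because this lowest ratio rests on them alone: the central 300 bases of the first (chr13:34166079-34166378, of which 58 are exon bases) and the whole of the second (chr13:34166530-34166782), from mm10, plus strand, with each CG dinucleotide in capitals, 8 in the first and 3 in the second.
Psmg4 first peak: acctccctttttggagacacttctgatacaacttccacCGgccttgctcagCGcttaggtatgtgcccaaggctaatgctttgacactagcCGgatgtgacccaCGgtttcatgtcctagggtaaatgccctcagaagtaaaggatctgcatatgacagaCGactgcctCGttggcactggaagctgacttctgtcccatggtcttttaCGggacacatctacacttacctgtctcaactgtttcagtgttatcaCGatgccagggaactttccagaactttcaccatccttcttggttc
Psmg4 second peak: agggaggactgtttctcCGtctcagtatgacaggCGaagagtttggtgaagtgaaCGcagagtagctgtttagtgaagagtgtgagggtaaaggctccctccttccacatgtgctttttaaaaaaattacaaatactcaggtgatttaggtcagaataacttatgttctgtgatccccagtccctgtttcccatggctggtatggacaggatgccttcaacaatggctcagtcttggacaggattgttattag

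Psmg1 and Psmg2 encode chaperones that act as a pair on the alpha ring. Psmg1 had 54.7 RPKM in splenic and 55.3 RPKM in intestinal Treg cells, a ratio of 0.02, and Psmg2 had 95.2 and 85.1 RPKM, a ratio of -0.16. Among the chaperones of the 19S particle, Psmd10 had 25.3 and 20.4 RPKM and a ratio of -0.30 (-1.11 to 0.50). Psmd9 had 136.5 and 151.8 RPKM and a ratio of 0.15 (-0.14 to 0.45), and Psmd5 lay between them at -0.04.

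The activators and the inhibitor also stayed near 0. Psme1 and Psme2 encode the partner subunits of PA28. Psme1 had 24.2 RPKM in splenic and 23.9 RPKM in intestinal Treg cells, a ratio of -0.02, and Psme2 had 26.7 and 22.4 RPKM, a ratio of -0.25 (-0.61 to 0.12). Psme3, which encodes the nuclear activator PA28 gamma, had 28.1 and 34.4 RPKM and a ratio of 0.29 (-0.07 to 0.64), but again a small peak of 463 bp (0.93) stood against a long peak of 7827 bp (-0.10), and the ratio was -0.06 weighted by length. Psme4 had 265.0 and 231.3 RPKM over 31 peaks, a ratio of -0.20 (-0.45 to 0.06). Psmf1, the inhibitor PI31, had 194.2 and 213.9 RPKM, a ratio of 0.14 (-0.08 to 0.36).

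Base composition moved with the ratio. In the whole peak set, the median log2 ratio rose from -0.64 in the peaks with the least GC (median 34.1%) to 0.47 in those with the most (62.9%). The peaks of the proteasome genes had a median GC content of 45.8%, against 48.1% over all genes. Across the 42 genes the ratio and the GC content had a Pearson r of 0.27 and a Spearman rho of 0.29, given as a description. Psma1 and Psmd6, with 39.7% and 41.2%, were among the genes with little GC, and Psmd3, with 51.7%, among those with more. After the trend over all peaks had been subtracted, the ratio was -0.16 (-0.49 to 0.17) for Psma1, -0.21 (-0.57 to 0.15) for Psmd6 and 0.20 (-0.02 to 0.41) for Psmd3, so these intervals then held 0. Psmb6, whose peak had more GC than the median of these genes, was at -0.52 (-0.82 to -0.22). The corrected median over the proteasome genes was 0.006 and that over all genes -0.01. The intervals that left out 0 after correction were those of Psmb6, Psmd8 (-0.33) and Psmb10 (-0.49) below it and of Psmf1 (0.23) and Psmc6 (0.28) above it. Of the genes called by the uncorrected sums, only Psmb6 was also called after correction.

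**Figure D5:**
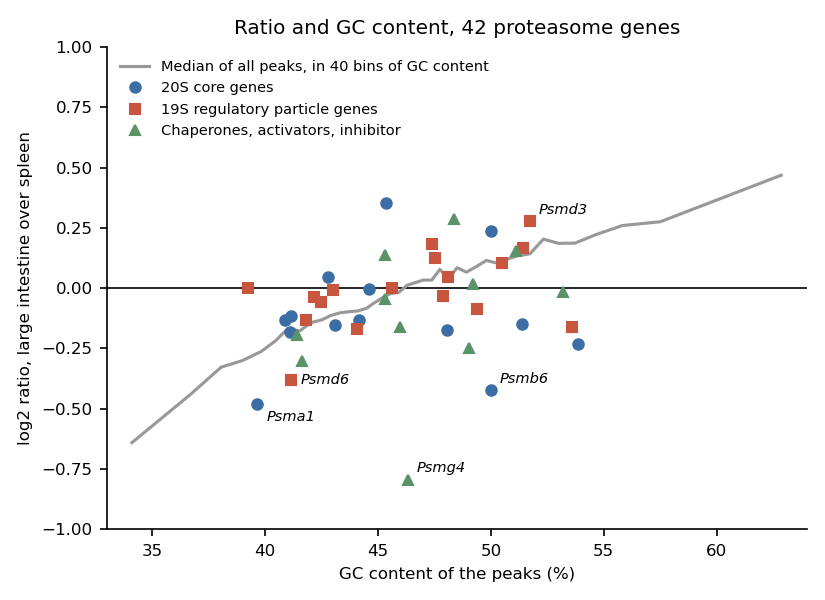
log2 ratio of large intestine over spleen (y axis) against the GC content of the peaks of each gene (x axis, percent) for the 42 proteasome genes, with 1 symbol for each particle or role, and the median of all peaks in 40 bins of GC content as a grey line. Psma1 and Psmd6 sit at 39.7% and 41.2% GC where the line is below 0, while Psmb6 lies far below the line at a GC content where the line is above 0.

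Genes that work with the proteasome but carry other symbols were compared from a list of 28, of which 27 were found in the annotation, 24 had a peak and 23 had enough signal. Their median log2 ratio was -0.11. The interval lay above 0 for 0 genes and below 0 for 6, against the 18.5% and 15.9% of all genes given above, and 0 were past 2-fold in either direction. The 6 were Usp14 and Ube3c, enzymes bound to the proteasome that trim and extend ubiquitin chains (-0.34 and -0.25), the proteasome adaptor Ecpas (-0.30), Akirin2, which brings proteasomes into the nucleus (-0.71), Zfand5, which stimulates proteasome activity (-0.55), and Ngly1 (-0.37). Ngly1 encodes the enzyme that removes sugars from Nfe2l1, the factor that raises proteasome genes when proteasome activity falls short. Ngly1 had 299.4 RPKM in splenic and 230.8 RPKM in intestinal Treg cells over 32 peaks. After the GC correction the interval of Ngly1 was still below 0, at -0.24 (-0.48 to -0.01), while those of the other 5 held 0, and the shuttle factor Rad23b (0.29) and the Vcp cofactor Nploc4 (0.14) lay above it. Nfe2l1 itself had 54.3 and 62.1 RPKM and a ratio of 0.19, its relative Nfe2l2 had -0.18, the core maturation factor Pomp had -0.02 and the unfoldase Vcp had 0.06, and none of these intervals left out 0.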

How the data were processed

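Treg cells were cross-linked for 15 min in 1% formaldehyde, 1 µg of chromatin per tissue was immunoprecipitated, and single-end reads of 75 nt were obtained. The authors aligned the reads to mm10, called peaks per tissue with MACS2 at p 0.01 against input chromatin of spleen, merged the peaks of both tissues and averaged RPKM coverage tracks over each peak. Bowtie2, MACS2 and bedtools are named in the submitters' processing notes, and versions are not given in the sources used here. The deposited values are mean RPKM per peak, although the table is labelled as raw counts, because the product of value and peak length came out as whole steps (within 0.05 of a step) for 100% of the peaks checked, 83663 in spleen and 74570 in large intestine. The planned ratio was used, and no count test was run. The input was not analysed here.

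Columns were scaled to equal totals (factors 0.984 for spleen and 1.02 for large intestine), peaks were assigned by midpoint to GENCODE M21 gene bodies, and no peak ran past a chromosome end of GRCm38. Ratios were computed over all coding genes with Python 3.11.15, numpy 2.4.6 and pandas 2.3.3, on the log2(value + 0.5 RPKM) scale. The scripts were tested on simulated data. The genes and lists were chosen with earlier results of these data known. Named with values were, by role, the genes with the highest and lowest ratio, the 5 in each direction with the most extreme interval bound, the 3 highest and 3 lowest levels per length, and each gene without a value. Others named were chosen after their values were seen. A few listed genes are not reported here.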

Additional observations from a re-analysis of the deposited data

How the results depend on the processing

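For 7 main results, 98 values were recomputed under 15 alternatives: 86 stayed within the limits set for a change, 11 moved and 1 reversed. Leaving out Psmc3ip, counted among the 15, could change no value, since that gene was not compared. The assumed read length, also among them, could change the intervals only and no ratio, median, SD or 2-fold count. The median log2 ratio turned from -0.05 to 0.0056 with the correction for GC content and was below 0 under the other 14 alternatives. The median ran from -0.15 to 0.02 for the 20S core genes, positive with the GC correction, and from -0.05 to 0.04 for the 19S genes. No proteasome gene passed 2-fold under any of the 15, and under each of them the SD was smaller for the proteasome genes (0.17 to 0.30) than for all genes (0.34 to 0.57). The counts of intervals that follow have in brackets the share over all genes under the same alternative. The number above 0, 1 as reported, was 2 with peaks weighted by length (23.6%), with the strongest peak of each gene (18.3%) and with the GC correction (12.3%). It was also 2 with 2 kb past the gene end added (19.1%). It was 3 in peaks of 1 kb or more (36 genes, 21.8%) and 5 with overlapped bases (46 genes, 24.3%). With the nearest transcript start it was 0 (17.5%), and with reads taken to cover 75 bp it was 7 (28.8%). The number below 0, 3 as reported, was 5 with length weighting (17.9%) and with the strongest peak (9.44%), and 10 with reads of 75 bp (26.8%). It was 4 in peaks of 1 kb or more (14.3%), with overlapped bases (17.7%) and with the nearest transcript start (14.5%). It was 2 with values as deposited (12.6%) and with at least 100 RPKM (26 genes, 19.3%). Reads taken as shorter give more reads and so narrower intervals; the cause of the other shifts was not tested. For single genes, 521 values were recomputed, of which 505 stayed, 16 moved and 0 called values reversed. Psma1 lay between -0.58 and -0.16, Psmb6 between -0.52 and -0.35, Psmd6 between -0.49 and -0.21 and Psmd3 between 0.09 and 0.32, each with 1 sign throughout, while Psma4 (-0.14 to 0.40) and Psme3 (-0.10 to 0.93) had both signs. No paired analysis was possible because each tissue had 1 library. Depth and the absence of replicates limit every comparison.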
